A study of Mus musculus with 16 samples.

Results

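Genes of the nuclear factor κB (NF-κB) pathway, namely Nfkb2, Ikbkg and Ikbke, were examined together with the genes that lie opposite to them in the mouse genome. They were chosen by name: Nfkb2 with Psd and AC114539.1, Ikbkg with G6pdx, and Ikbke with Gm28914 and Gm28913, which makes 8 genes. Of the 48440 rows of the count table, 7 belonged to these genes, and AC114539.1 was not analysed here. A row is the set of reads that the authors' counting assigned to a gene. Of the 7 rows, 6 passed the filter on low counts, and the row of Ikbke, with 18 counts over all libraries, did not.

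The cells were bone marrow-derived macrophages (BMDMs), grown from the marrow of female NOD.hALOX12 mice (8 weeks of age) for 7 days in 10 ng/mL macrophage colony-stimulating factor (M-CSF). All groups shared the nonobese diabetic background and a gene replacement in which human ALOX12 takes the place of mouse Alox15. Cells received vehicle (0.1% DMSO) or 10 µM VLX-1005, an inhibitor of 12-lipoxygenase (12-LOX), starting 1 hour ahead of stimulation and, by the study's description, kept on during polarization. They either stayed unstimulated (M0) or were made M1-like by adding LPS at 10 ng/mL together with IFN-γ at 25 ng/mL. The stimulation lasted 18 hours by the methods text or 24 hours by the study's drawing. The 16 libraries formed 4 groups of 4, vehicle and VLX-1005 in each of M0 and M1. Whether the libraries of a group stem from different mice is not said in the sources used here, so the p-values refer to library-to-library spread, which may be technical.

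NF-κB transcription factors are held in the cytosol of resting macrophages by inhibitor (IκB) proteins, and LPS, acting through Toll-like receptor 4, releases them by way of the IκB kinase (IKK) complex. Ikbkg encodes NEMO, the regulatory subunit of that complex in the canonical arm, Nfkb2 encodes p100, the precursor of the p52 subunit of the noncanonical arm, and Ikbke encodes IKKε, an IKK-related kinase of the antiviral interferon response. Of the genes opposite, Psd encodes a guanine nucleotide exchange factor for the small GTPase ARF6, best known from neurons, and G6pdx encodes glucose-6-phosphate dehydrogenase, the enzyme of the rate-limiting step of the pentose phosphate pathway. AC114539.1, Gm28914 and Gm28913 are annotated as noncoding RNAs.

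In the annotation of mm10 (GENCODE M21), Nfkb2 (ENSMUSG00000025225.14) occupied chr19:46304320-46312385 on the plus strand. Of its 4584 exonic bases, 830 (18.1%) faced exons on the other strand, in AC114539.1 (chr19:46303591-46305611, 531 bases) and in Psd (ENSMUSG00000037126.15, chr19:46312087-46327156, 299 bases). The Nfkb2 and Psd genes met tail to tail, with the shared stretch at chr19:46312087-46312385. Ikbkg (ENSMUSG00000004221.16) lay at chrX:74393290-74453854 on the plus strand and G6pdx (ENSMUSG00000031400.10) at chrX:74409483-74429194 on the minus strand. They shared 418 exonic bases, 5.2% of the 8110 of Ikbkg and 13.6% of the 3080 of G6pdx. Ikbke (ENSMUSG00000042349.13) lay at chr1:131254343-131279606 on the minus strand and faced Gm28914 (ENSMUSG00000102027.1, chr1:131259507-131260553) over 159 bases and Gm28913 (ENSMUSG00000102055.1, chr1:131263330-131266749) over 65 bases. Together these were 2.5% of the exonic bases of Ikbke, 23.8% of those of Gm28914 and 17.9% of those of Gm28913. All these genes thus had most of their exonic bases outside the shared stretches.

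Promoter windows, running from 250 bases before to 50 bases after a start site, were taken from RefSeq (GRCm38.p6) for 6 of the 8 genes. The κB consensus, the sequence that NF-κB dimers bind, was searched on both strands and was found in 8.46% of the 32851 windows of all genes. It was present in each of the 3 windows of Nfkb2, which belong to alternative start sites. It was not found in the windows of Psd, Ikbkg, G6pdx, Ikbke or Gm28913, the last of which has a RefSeq start site upstream of its GENCODE gene. The core of the interferon-γ-activated site (GAS), TTCNNNGAA, was found in 8.3% of all windows, in the first window of Nfkb2 and in the second window of Psd. The core of the interferon-stimulated response element (ISRE), a pair of GAAA tetramers with 2 bases between them, was found in 3.44% of all windows and in none of these genes. A match is a description of the letters and not a measured binding site.

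κB matches of the Nfkb2 promoters are shown because Nfkb2 was the only member whose windows held them. Capitals mark a κB match of 10 bases, the strand is plus and the build is mm10. The first stands 39 bases before the first start site, the next lies in the third window and 10 bases after the second start site, and the longer stretch is the part of the second window outside annotated untranslated regions, with a match on the minus strand 236 bases before that start site. In the first window a minus-strand match overlaps the capitals, shifted by 1 base, and a further match at position -11 from that start site (chr19:46304726-46304735) is not printed.
Nfkb2, chr19:46304688-46304717: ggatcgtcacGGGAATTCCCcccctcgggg
Nfkb2, chr19:46305695-46305724: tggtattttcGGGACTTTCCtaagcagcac
Nfkb2, chr19:46305445-46305695: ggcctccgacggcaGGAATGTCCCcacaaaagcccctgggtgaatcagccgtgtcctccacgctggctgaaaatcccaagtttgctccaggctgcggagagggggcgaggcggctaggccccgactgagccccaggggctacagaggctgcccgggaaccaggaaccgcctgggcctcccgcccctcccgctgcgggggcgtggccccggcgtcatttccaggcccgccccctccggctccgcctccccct

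The first exon of Gm28913 is shown because all 65 of its bases face an exon of Ikbke on the other strand. Capitals mark the 20 bases that face coding sequence of Ikbke. The sequence is the plus strand of mm10, with the exon as in GENCODE M21.
Gm28913, chr1:131263330-131263394: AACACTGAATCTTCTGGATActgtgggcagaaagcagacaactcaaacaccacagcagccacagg

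Total counts per library ranged from 939584 to 1158095, and levels are given as CPM (counts scaled to 1000000 per library) after TMM normalization. The libraries were made with a strand-specific protocol, but the strand setting of the counting was not given in the sources used here. Rows whose exons face exons of another gene numbered 8460 (17.5% of the table) and held 96.3% to 97.2% of each library's counts. Reads from a gene and from its opposite partner therefore cannot be told apart here, and each value below belongs to a row and not to a transcript. The first principal component held 94.8% of the variance of the 500 most variable rows, and the second held 0.935%. On the second, 3 M0 libraries stood away from the others. These were replicates 2 and 3 of M0 vehicle (-4.07 and -8.29) and replicate 3 of M0 VLX-1005 (-7.63). As in any bulk sample, fewer cells of a type and less RNA per cell cannot be told apart. The summed level of 9 macrophage markers was 812 to 1000 CPM in M0 and 278 to 346 CPM in M1 libraries, but its members did not move together. With vehicle the fall of the sum was mostly that of Cd163, a scavenger receptor, from 587 to 3.73 CPM, and Lyz2 fell from 97.3 to 17.0 CPM, while Csf1r was at 202 and 215 CPM without passing the test and Adgre1 rose from 14.8 to 45.1 CPM. All 5 neutrophil markers were at 0, and T cell, B cell and fibroblast markers summed to at most 4.38 CPM. Some macrophage markers were sparse too, with 19 counts for Fcgr1, 38 for Mrc1 and 78 for Mertk over all libraries. A row at or near 0 therefore does not show that a cell type was absent. Of 4 dendritic cell markers, Flt3, Zbtb46 and Siglech were at 0 in every library, while Xcr1 was at 0 to 4.89 CPM in M0 and 167 to 257 CPM in M1, and its part in the results was not tested.

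The M1 libraries held more counts in all 6 tested rows than the M0 libraries did, with vehicle and with VLX-1005 alike. The G6pdx and Psd rows rose about 6-fold, the Gm28914 and Gm28913 rows about 5-fold, and the Ikbkg and Nfkb2 rows less. With edgeR at an adjusted p under 0.05, 6 of 6 tested members were called higher in M1 than in M0 with vehicle, beside 31.7% of all 3453 rows called higher, 34.8% called lower and 66.5% called in either direction. With VLX-1005, 6 of 6 were higher, beside 31.5% called higher, 33.8% called lower and 65.3% called in either direction. In both transitions the CPM of the groups did not overlap for any of the 6 rows, beside 29.1% (vehicle) and 28.8% (VLX-1005) of all rows with M1 wholly above M0. The median log2 fold change was 2.28 and 2.22 over the 6 members, against -0.10 and -0.08 over all rows.

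**Figure D1:**
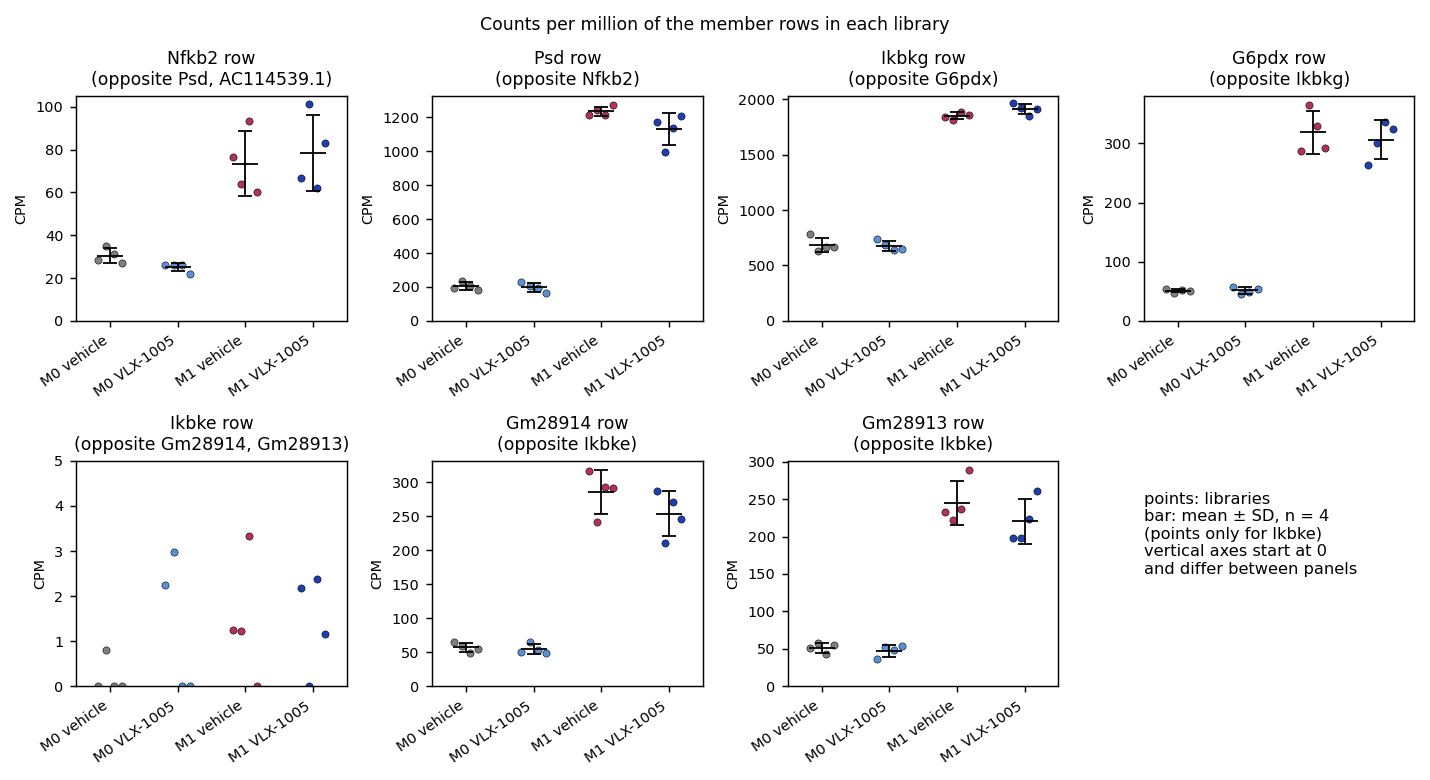
CPM (vertical axis) of the 7 member rows in each of the 16 libraries, by group, with the mean and SD of 4 libraries as bars (points only for Ikbke); the vertical axes start at 0 and differ between panels. The M1 libraries lie above the M0 libraries in every panel but that of Ikbke, where no library exceeds 3.34 CPM.

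Nfkb2 encodes the p100 precursor of the noncanonical arm. Its row was at 28.5, 35.1, 31.2 and 27.2 CPM in M0 vehicle, 26.2, 26.0, 26.0 and 22.1 CPM in M0 VLX-1005, 76.4, 63.9, 93.6 and 60.0 CPM in M1 vehicle, and 66.7, 101, 62.1 and 83.3 CPM in M1 VLX-1005. The lowest M1 library of either treatment stood well above the highest M0 library, and the M1 libraries were far more spread than the M0 libraries. The mean rose from 30.5 ± 3.47 (SD, n = 4) to 73.5 ± 15.1 CPM with vehicle, a log2 fold change of 1.27 (SE 0.19), or 2.40-fold, with an adjusted p of 4.04e-06 by edgeR. With VLX-1005 it rose from 25.1 ± 1.98 to 78.3 ± 17.8 CPM, a log2 fold change of 1.63 (SE 0.19, adjusted p = 1.29e-07 by edgeR). These values rest on 26 to 44 counts per M0 library and 52 to 84 per M1 library. In the vehicle transition 559 of the 3453 rows had a larger log2 fold change.

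The Psd row lies opposite to the tail of Nfkb2. It was at 196, 238, 208 and 179 CPM in M0 vehicle, 229, 204, 196 and 162 CPM in M0 VLX-1005, 1213, 1241, 1214 and 1273 CPM in M1 vehicle, and 1175, 998, 1140 and 1211 CPM in M1 VLX-1005. The M1 libraries lay far above all M0 libraries, and M1 VLX-1005 2 was the lowest of the M1 libraries. The log2 fold change was 2.59 (SE 0.09, adjusted p = 1.38e-16 by edgeR) with vehicle and 2.51 (SE 0.09, adjusted p = 2.38e-16) with VLX-1005. Per kilobase of exon, the Psd row was at 26.9 CPM in M0 and 162 CPM in M1 with vehicle, while the Nfkb2 row was at 6.65 and 16 CPM per kilobase. The Psd row therefore held more counts per exonic base than the Nfkb2 row in every group. Values per kilobase, here and below, divide by all exonic bases of a gene. Where along the gene its reads lay is not known from the counts.

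Ikbkg encodes NEMO. Its row was at 780, 633, 665 and 662 CPM in M0 vehicle, 741, 683, 636 and 651 CPM in M0 VLX-1005, 1842, 1813, 1887 and 1855 CPM in M1 vehicle, and 1965, 1917, 1850 and 1915 CPM in M1 VLX-1005. It was the deepest of the 7 rows, and its M1 libraries lay close together. The log2 fold change was 1.43 (SE 0.07, adjusted p = 8.28e-15 by edgeR) with vehicle, or 2.70-fold, and 1.5 (SE 0.07, adjusted p = 3.97e-15) with VLX-1005. The G6pdx row, on the other strand, was at 53.8, 47.8, 52.5 and 51.3 CPM in M0 vehicle, 57.7, 46.1, 48.1 and 54.4 CPM in M0 VLX-1005, 288, 365, 330 and 292 CPM in M1 vehicle, and 264, 300, 337 and 325 CPM in M1 VLX-1005. All M1 libraries were above all M0 libraries. Its log2 fold change was 2.63 (SE 0.12, adjusted p = 4.14e-15 by edgeR) with vehicle, or 6.19-fold, and 2.57 (SE 0.12, adjusted p = 6.45e-15) with VLX-1005. Per kilobase of exon, the Ikbkg row was at 84.5 CPM in M0 and 228 CPM in M1 with vehicle, and the G6pdx row was at 16.7 and 103 CPM. Unlike at Nfkb2, the row of the pathway gene was the higher of the pair.

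Ikbke encodes IKKε. Its row held 1 count in M0 vehicle, 7 in M0 VLX-1005, 5 in M1 vehicle and 5 in M1 VLX-1005, spread as 0, 1, 0 and 0, as 3, 4, 0 and 0, as 1, 1, 3 and 0, and as 2, 0, 2 and 1. A count of 0 in a library allows up to 3 counts, which was 2.28 to 3.75 CPM in the libraries at 0. The row was not tested, and differences of a few CPM between groups were out of reach at this depth. The limit of 3 counts covers counting error only. The rows on the other strand were well filled. Gm28914 was at 65.2, 59.8, 49.4 and 55.3 CPM in M0 vehicle, 50.2, 64.7, 53.5 and 48.5 CPM in M0 VLX-1005, 317, 241, 293 and 292 CPM in M1 vehicle, and 287, 210, 271 and 246 CPM in M1 VLX-1005. Its M1 libraries lay above all its M0 libraries. The log2 fold change was 2.31 (SE 0.13, adjusted p = 3.64e-13 by edgeR) with vehicle and 2.22 (SE 0.13, adjusted p = 8.72e-13) with VLX-1005. Gm28913 was at 50.5, 57.4, 42.6 and 55.3 CPM in M0 vehicle, 35.9, 52.1, 48.1 and 53.6 CPM in M0 VLX-1005, 233, 222, 236 and 288 CPM in M1 vehicle, and 198, 198, 223 and 261 CPM in M1 VLX-1005, again with no overlap between M0 and M1. Its log2 fold change was 2.25 (SE 0.14, adjusted p = 2.63e-12 by edgeR) with vehicle and 2.21 (SE 0.14, adjusted p = 4.34e-12) with VLX-1005. Per kilobase of exon, Gm28913 was at 141 CPM and Gm28914 at 86.1 CPM in M0 vehicle, against 0.0221 CPM for Ikbke.

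**Figure D2:**
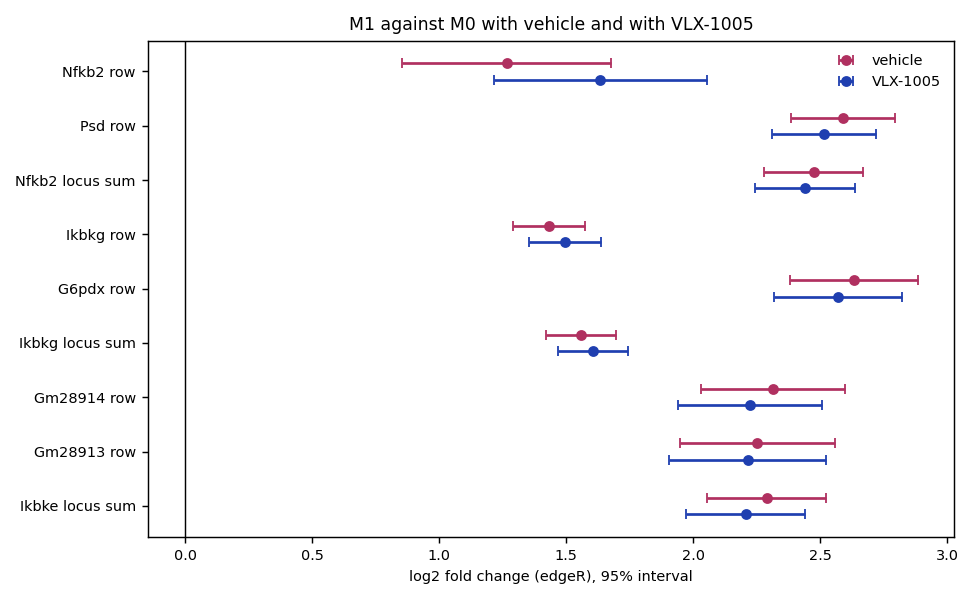
Log2 fold change of M1 against M0 (horizontal axis, edgeR, with its 95% interval) for the 6 tested rows and for the sums over each locus, with vehicle and with VLX-1005. All intervals lie above 0, and the Nfkb2 row has the widest, from 0.85 to 1.68 with vehicle.

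The counts of the rows at each locus were also summed, which removes only the split of reads between rows over the facing bases, and AC114539.1 is not in the sum. The Nfkb2 locus (Nfkb2 and Psd) rose from 236 ± 28.0 to 1308 ± 17.9 CPM (SD, n = 4) with vehicle, a log2 fold change of 2.47 (SE 0.09, adjusted p = 1.21e-16 by edgeR). The Ikbkg locus (Ikbkg and G6pdx) rose from 736 ± 67.2 to 2168 ± 38.2 CPM, a log2 fold change of 1.56 (SE 0.06, adjusted p = 1.1e-15 by edgeR). The Ikbke locus (Ikbke, Gm28914 and Gm28913) rose from 109 ± 11.8 to 532 ± 49.1 CPM, a log2 fold change of 2.29 (SE 0.11, adjusted p = 1.37e-14 by edgeR). With VLX-1005 the log2 fold changes of the sums were 2.44, 1.61 and 2.21.

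The share of locus counts in the pathway gene's own row was lower in M1 than in M0 at Nfkb2 and Ikbkg, though not past the threshold after adjustment. The Nfkb2 row held 12.9% ± 0.194 (SD, n = 4) of its locus in M0 vehicle, 11.3% ± 0.773 in M0 VLX-1005, 5.62% ± 1.19 in M1 vehicle and 6.55% ± 1.86 in M1 VLX-1005. The Ikbkg row held 93.0% ± 0.384, 92.9% ± 0.577, 85.3% ± 1.51 and 86.2% ± 1.53 in the same order. The M0 and M1 libraries did not overlap at either locus. The difference was -7.33 percentage points at Nfkb2 and -7.69 at Ikbkg with vehicle, and -4.79 and -6.74 with VLX-1005. Each had p = 0.0286 in an exact two-sided permutation test, the smallest that 4 against 4 libraries can give. The adjusted p was 0.0686 over the 12 share comparisons (3 loci in 4 comparisons), which missed the threshold of 0.05. At the smallest p, the adjusted value depends only on how many of the 12 comparisons reach it. Missing the threshold therefore does not show that the shares were alike. The Ikbke row held 0 to 2.54% of its locus in single libraries, with no order between the groups (exact p from 0.4286 to 1).

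**Figure D3:**
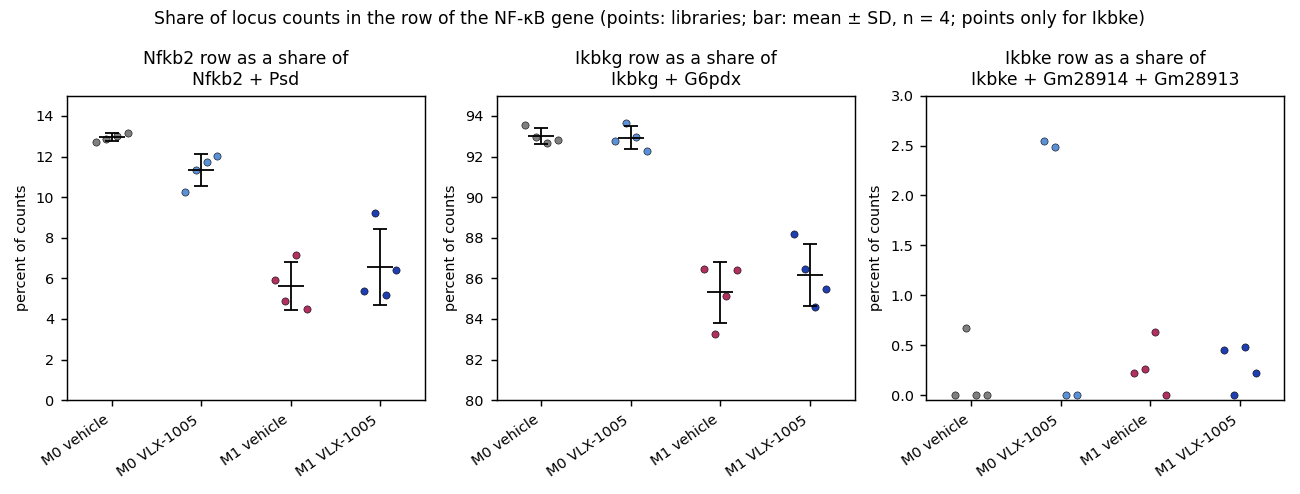
Percent of locus counts that fell in the row of the NF-κB gene (vertical axes, which differ and start at 80% for Ikbkg) in each library, with mean and SD of 4 libraries as bars (points only for Ikbke). The shares of Nfkb2 and Ikbkg are lower in every M1 library than in every M0 library, at 4.50% to 9.22% against 10.3% to 13.2% for Nfkb2.

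No member was called for VLX-1005 against vehicle in M0 or in M1. In M0 0 of 6 tested rows passed, beside 0% of all rows, with 103 of 3453 rows at an unadjusted p under 0.05 in edgeR, while DESeq2 and limma-voom called 0 (74 and 115 rows at an unadjusted p under 0.05). In M1 0 of 6 passed, beside 0% of all rows, with 128 rows at an unadjusted p under 0.05 in edgeR and 0 called by DESeq2 (95) and limma-voom (107). The Nfkb2 row was the only one of the 6 whose M0 libraries did not overlap between treatments, at 22.1 to 26.2 CPM with VLX-1005 and 27.2 to 35.1 CPM with vehicle, beside 2.46% of all rows in either direction. Its log2 fold change was -0.28 (95% interval -0.72 to 0.16, adjusted p = 1 by edgeR), so the test did not call this difference. Its share of the locus was 1.61 percentage points lower in M0 VLX-1005 than in M0 vehicle (p = 0.0286, exact permutation test, adjusted p = 0.0686). These shares rest on 26 to 44 Nfkb2 counts per M0 library, and the part of counting error in this difference was not tested. The other 5 rows in M0 had log2 fold changes from -0.12 to 0.01.

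In M1, the Psd row was the only one of the 6 whose libraries did not overlap between treatments, at 998 to 1211 CPM with VLX-1005 and 1213 to 1273 CPM with vehicle, beside 1.97% of all rows in either direction. Its log2 fold change was -0.13 (95% interval -0.31 to 0.06, adjusted p = 0.998 by edgeR). The Gm28914 and Gm28913 rows, both opposite to Ikbke, had log2 fold changes of -0.17 (-0.43 to 0.09) and -0.16 (-0.43 to 0.12). The Ikbkg row had 0.05 (-0.09 to 0.19), the G6pdx row -0.06 (-0.28 to 0.17) and the Nfkb2 row 0.09 (-0.30 to 0.48). The interval was thus narrowest for Ikbkg, the deepest row, and widest for Nfkb2, the shallowest of the 6.

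**Figure D4:**
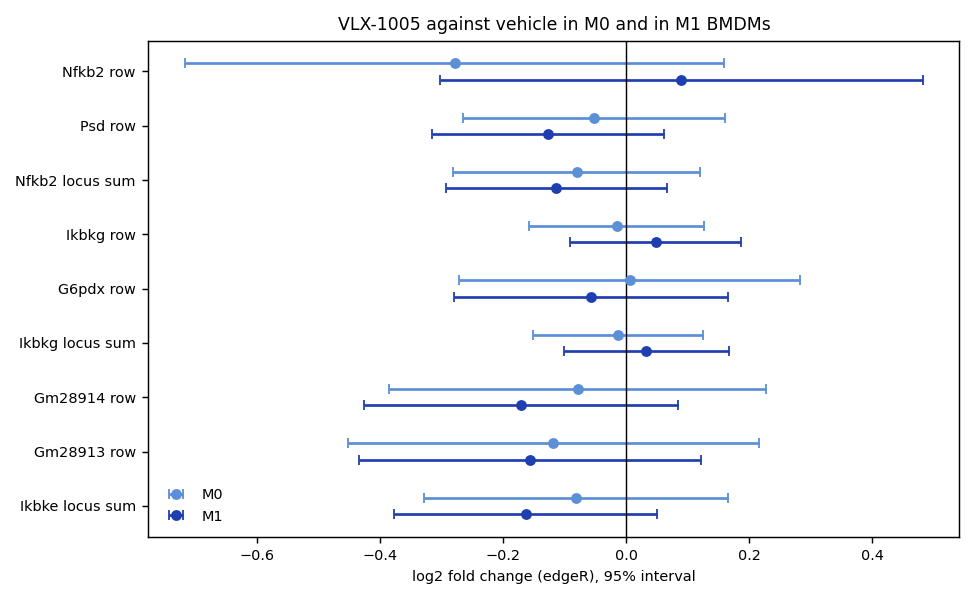
Log2 fold change of VLX-1005 against vehicle (horizontal axis, edgeR, with its 95% interval) in M0 and in M1 BMDMs for the 6 tested rows and the sums over each locus. Every interval includes 0, and the Nfkb2 row in M0 lies farthest from it, at -0.28.

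The difference between the transitions with VLX-1005 and with vehicle (the interaction) was called for 0 of the 6 rows and for 0% of all rows in edgeR, with 148 rows at an unadjusted p under 0.05, and for 0 rows by DESeq2 (107) and limma-voom (133). The Nfkb2 row had the largest difference of the 6, 0.37 on the log2 scale (95% interval -0.22 to 0.96, adjusted p = 1). For the other 5 rows it lay between -0.09 and 0.06.

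Other genes of the pathway were taken from 7 lists with 55 genes besides the members: NF-κB subunits, IκB proteins, IKK and related kinases, the noncanonical arm, the relay from Toll-like receptor 4 to IKK, ubiquitin partners and brakes, and adaptors and substrates of IKKε and TBK1. Of their own rows, 6 of 55 were tested, and 5 of these rose and 0 fell in each transition. Of the 13 rows opposite to them, 8 were tested, and 6 rose and 0 fell in each transition. Beside these, 31.7% of all 3453 rows were called higher and 34.8% lower with vehicle. With VLX-1005 the shares of all rows were 31.5% and 33.8%. Neither set had a row called for VLX-1005 in M0 or M1. The median log2 fold change with vehicle was 1.88 over the 6 own rows and 2.07 over the 8 opposite rows, against -0.10 over all rows. Most own rows were too sparse to be tested, so these counts describe the few that were deep enough. Cd14, Irf7, Ccer2 and Phrf1 were sparse in M0, at 2.58, 7.36, 4.18 and 1.77 CPM with vehicle. They passed the filter through their M1 libraries, so their rise is partly set by the filter. The counts and medians are therefore no measure of the pathway.

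In the receptor relay, Cd14, the co-receptor for LPS, rose with vehicle from 2.58 to 21.7 CPM (log2 fold change 3.01, SE 0.46, adjusted p = 5.34e-06 by edgeR). Myd88, the adaptor that links Toll-like receptors to IRAK kinases, rose from 17.6 to 50.3 CPM (1.5, SE 0.27, adjusted p = 4.19e-05), while Acaa1a, a peroxisomal thiolase opposite to it, rose from 311 to 1288 CPM (2.05, SE 0.07). Irak3, a brake on the relay, rose by 2.35 (SE 0.17) on the log2 scale. Irak4, a kinase of the relay, rose by 0.25 (SE 0.07, adjusted p = 0.0033 by edgeR), from 790 to 940 CPM. The row Gm43963, opposite to Irak2, rose from 351 to 1494 CPM (2.09, SE 0.08). As at Nfkb2, the opposite rows at Myd88 and Irak2 held more counts than the row of the pathway gene. At Irak3 and Irak4 it was the other way. Their own rows held 995 and 14404 counts over all libraries, against 38 for Tmbim4 (opposite to Irak3) and 66 for Twf1 (opposite to Irak4).

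Among the regulators, no IκB protein had a tested row: Nfkbib held 68 counts over the 16 libraries, Nfkbia 49 and Nfkbie 29. Of the 3 rows opposite to this list, 2 were tested and rose, Ccer2 (opposite to Nfkbib) by 2.61 (SE 0.35) and Gm16175 (opposite to Bcl3, an atypical IκB protein) by 2.40 (SE 0.14) on the log2 scale. The third, Sirt2, also opposite to Nfkbib, was not tested and was at 7.12 CPM in M0 and 5.52 CPM in M1 with vehicle. The other subunits and kinases were sparse too, with 91 counts for Rela, 69 for Nfkb1, 33 for Tbk1 and 32 for Ikbkb. In the noncanonical arm, where p100 is processed, Traf1 held 77 counts, Cd40 38 and Birc3 26, and none was tested. Rnf31, the catalytic subunit of the linear ubiquitin ligase that acts on NEMO, had a log2 fold change of 0.55 (SE 0.48, adjusted p = 0.326 by edgeR). Gm43966, opposite to Tax1bp1, rose by 1.27 (SE 0.09), and 4930551O13Rik, opposite to Optn, had a log2 fold change of -0.00 (SE 0.17). Sharpin, with 75 counts, and Tax1bp1, with 98, were not tested.

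Among the partners and substrates of IKKε and TBK1, Irf7, an interferon regulatory factor, rose from 7.36 to 35.9 CPM (log2 fold change 2.27, SE 0.31, adjusted p = 1.3e-06 by edgeR), and Phrf1, opposite to it, rose from 1.77 to 82.0 CPM (5.43, SE 0.38). Bcl2l12, opposite to Irf3, had 0.06 (SE 0.13, adjusted p = 0.699 by edgeR). Azi2 with 69 counts and Irf3 with 24 were not tested.

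**Figure D5:**
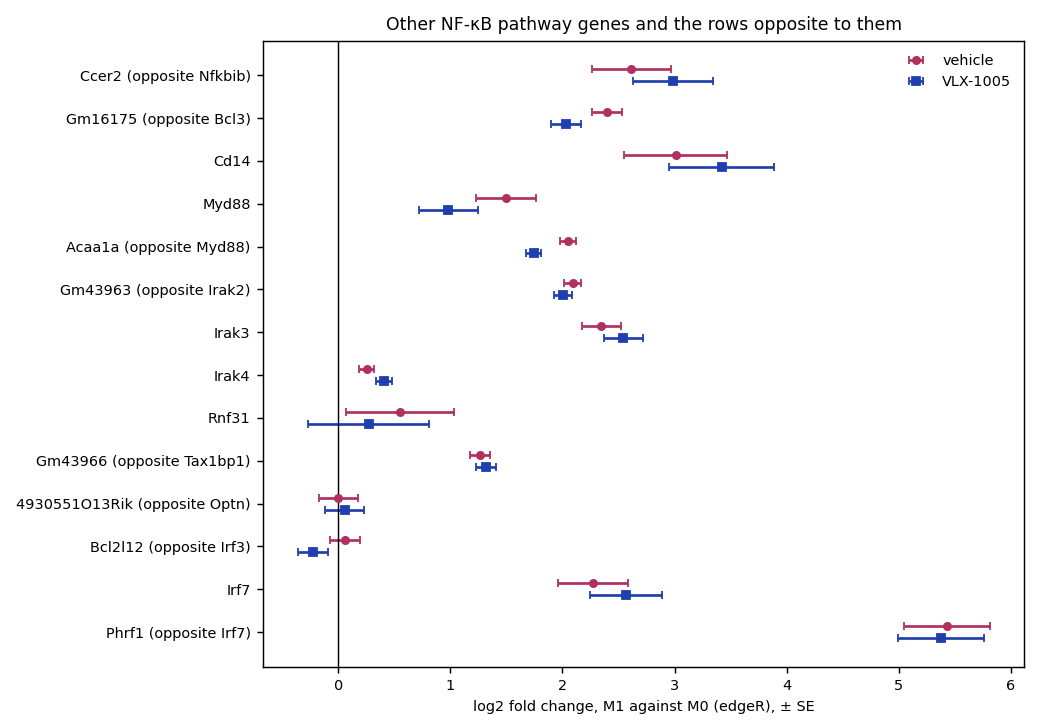
Log2 fold change of M1 against M0 (horizontal axis, edgeR, ± SE) with vehicle and with VLX-1005 for the 6 own rows and 8 opposite rows of the 7 pathway lists that were tested. Phrf1 has the largest change, 5.43 with vehicle, and 4930551O13Rik, Bcl2l12 and Rnf31 are the 3 rows that did not pass the test in either transition.

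Of 11 target genes of NF-κB, only Ccl3 and Sdc4 were tested. Ccl3, a chemokine, rose with vehicle from 91.8 to 214 CPM (log2 fold change 1.22, SE 0.12, adjusted p = 6.09e-09 by edgeR), and Sdc4, a heparan sulfate proteoglycan, rose by 1.26 (SE 0.51, adjusted p = 0.0332). Sdc4 was sparse in M0, at 4.19 CPM with vehicle and 1.80 CPM with VLX-1005. It passed the filter through its M1 libraries, so its rise is partly set by the filter. The other targets were not tested. Icam1, an adhesion molecule, had 64 counts over the 16 libraries, Gadd45b 26, Cd83 21, Il12b 18, Tnf 14, Cxcl2 8, Il6 7, Ccl4 1 and Cxcl1 0. Ccl3 and Sdc4 therefore do not stand for the list. Of 7 genes of the pentose phosphate pathway, G6pdx and Rpe were tested. Rpe, the epimerase of that pathway, rose from 56.5 to 95.4 CPM (0.76, SE 0.14, adjusted p = 7.06e-05 by edgeR), and Kansl1l, opposite to it, by 1.07 (SE 0.15). Pgd, the next dehydrogenase after G6pdx, held 124 counts and was not tested.

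The rows most like each member were sought by Pearson's r of log2 CPM over the 16 libraries among 1672 rows with a mean of at least 50 counts. This r is a description: the libraries share their M0 and M1 states, so any row that rises with M1 scores high. For Nfkb2 the nearest were Gm42893 (opposite to Sass6, r = 0.983), Cd274 (opposite to AC119228.1, 0.969) and Mars (opposite to Ddit3, 0.968). Of the rows compared with Nfkb2, 67 had r over 0.95. For Psd they were Gm26885 (opposite to Pim1), Zmynd15 (opposite to Cxcl16) and E430024P14Rik (opposite to Tagap), at 0.996 to 0.997. For Ikbkg they were Gm20496 (opposite to Psmb8 and Tap2), Gm37787 (opposite to Slamf7) and 1700071M16Rik (opposite to Pla2g7), at 0.995 to 0.996. For G6pdx they were Gm11978 (opposite to Ramp3), Gm26584 (opposite to Slc7a2) and Arhgef12 (opposite to Gm5831), at 0.995 to 0.997. For Gm28914 they were Gm17139 (opposite to Arel1), Gm20470 (opposite to Katna1) and BE692007 (opposite to Ms4a6c), at 0.994 to 0.995. For Gm28913 they were Gm2245 (opposite to Fyb), Mtrex (opposite to Plpp1) and A930037H05Rik (opposite to Rnf213), at 0.991 to 0.992. The other 5 members each had 283 to 321 rows with r over 0.95, so the likeness singled out no small set.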

How the data were processed

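RNA of 16 libraries was compared. Per the labels and methods, the authors made strand-specific polyA libraries, used HISAT2 (in Galaxy) for alignment to mm10 and HTSeq for counting. The submitters' processing notes list Trimmomatic, FastQC and DESeq2 as well, without versions. The deposited values were raw counts by gene, with no normalization or filter. The annotation release and strand setting were not given in the sources used here. GENCODE M21 held 48058 of 48440 row identifiers, and rows were paired with their opposite partners by facing exons.

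The filterByExpr function (by group) left 3453 rows, which were scaled by TMM. One model of all 16 libraries was fitted with edgeR 4.0.16 (R 4.3.3, quasi-likelihood), p-values were adjusted by Benjamini-Hochberg across the 3453 rows, and intervals used 12 residual degrees of freedom. Shares were compared by exact permutation over 70 labellings. Alternatives were DESeq2 1.42.0, limma-voom 3.58.1, other normalizations and filters, fits restricted to the groups compared, the replicate block and leaving out each library. The permutation test of shares was tried on simulated data. Figures used matplotlib 3.10.9.

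Members and lists were chosen with earlier results of these data known. Named genes were the members, up to 4 called genes per list with the smallest adjusted p, the 3 of highest CPM, the opposite rows, and the 3 rows most like each member. Replicates of a group always differed beyond sampling noise, at a chi-square of 2.43 to 6.6 per degree of freedom, and each was kept as its own replicate.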

Additional observations from a re-analysis of the deposited data

Results flagged for a closer look

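Of 44 groups of 4 values checked for a library far from the rest, 1 stood out. The Nfkb2 row in M0 VLX-1005 4 was at 22.1 CPM, while the other M0 VLX-1005 libraries were at 26.0 to 26.2 CPM. The gap was 0.941 of the group's range, above Dixon's 95% critical value for 4 values. Chance flags about 1 in 20 groups. The values were 26 counts against 34 and 35 counts, and the part of counting error was not tested. Leaving out a library in turn moved the log2 fold change of this row in M0 (VLX-1005 against vehicle) between -0.33 and -0.21, with none called.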

How the results depend on the processing

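In both transitions all 300 alternative fits of the 6 member rows kept the direction and the call (log2 fold change 1.13 to 2.70, highest adjusted p = 3.99e-05, from the tests named in the processing text). Of 666 fits of VLX-1005 against vehicle and of the difference between transitions, none was called (lowest adjusted p = 0.768), and 33 changed sign around values near 0, between -0.0538 and 0.0828. When the 3 M0 libraries that stood away (M0 vehicle 2 and 3, M0 VLX-1005 3) were left out, a choice made after seeing the data, the log2 fold change for VLX-1005 in M0 was 0.0828 for Psd and 0.0525 for the Nfkb2 locus, and the difference between transitions was 0.0216 for Gm28913.

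Leaving out each library in turn, the log2 fold changes for VLX-1005 in M0 that changed sign ranged from -0.131 to 0.0297 (Psd), -0.0605 to 0.0616 (Ikbkg), -0.053 to 0.0562 (G6pdx) and -0.0598 to 0.0592 (Ikbkg locus), and in M1 from -0.0538 to 0.232 (Nfkb2) and -0.104 to 0.0197 (G6pdx). The difference between transitions ranged from -0.155 to 0.00686 (Psd), -0.00648 to 0.111 (Ikbkg), -0.11 to 0.0146 (G6pdx), -0.159 to 0.00933 (Gm28914), -0.149 to 0.0535 (Gm28913), -0.111 to 0.0413, -0.0193 to 0.0956 and -0.147 to 0.00432 (Nfkb2, Ikbkg and Ikbke loci). Shares in percentage points ranged from -0.332 to 0.132 (Ikbkg, VLX-1005 in M0), -0.00498 to 0.28 (Ikbke, M1 vehicle against M0 vehicle) and -0.0838 to 0.125 (Ikbke, VLX-1005 in M1). The cause was not tested.

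Same-numbered libraries deviated together only weakly on average (mean correlation 0.0474 to 0.111 by number), so the numbers were not taken to pair them. Single pairs of the same number ranged from -0.17 to 0.678, and pairs of different numbers from -0.586 to 0.507. Whether some libraries were paired cannot be told from these values. The replicate block changed no call. The depth limits Ikbke, with 18 counts, and the sparse rows of other pathway genes.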
